A study of Mus musculus with 9 samples.

Results

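The data described here are the hippocampal mRNA levels of 10 genes whose products shape the growing axon and are retained in plastic neurons of the adult brain: Gap43, Basp1, Marcks, Marcksl1, Stmn1, Stmn2, Stmn3, Stmn4, Tubb3 and Dpysl3. They were chosen by name from the 18275 genes of the deposited table, each name was found on 1 row, and all 10 passed the filter on low values. Libraries were made from the hippocampus of adult male mice labelled C57BL/6N, 4 from Nestin;BrafKE/+ mice and 5 from Braf+/+ littermates. Nestin;BrafKE/+ mice carry 1 Braf allele with the activating K499E change, expressed from the endogenous Braf promoter once Nestin-Cre has recombined it in neural stem cells, so that the neurons and glia descended from those cells carry the allele. Whether the Braf+/+ animals carried the Cre transgene is not given in the sources used here. The names of the libraries fall into 3 series, called A (1 Nestin;BrafKE/+ and 3 Braf+/+), B (2 and 1) and C (1 and 1). What the series stand for is not stated.

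Gap43, Basp1, Marcks and Marcksl1 encode acidic proteins anchored to the inner face of the plasma membrane. They bind phosphoinositides, they are substrates of protein kinase C (PKC), and they regulate the actin cortex of growth cones and presynaptic terminals. The stathmins, encoded by Stmn1 to Stmn4, bind tubulin dimers and favour microtubule disassembly, and Stmn2, Stmn3 and Stmn4 are mostly neuronal. Tubb3 encodes a neuron-specific beta-tubulin, and Dpysl3 a collapsin response mediator protein, a cytosolic phosphoprotein that links semaphorin signals to the cytoskeleton. In the adult brain Gap43 stays high in association cortex and hippocampus and is widely used as a marker of axonal plasticity.

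RefSeq promoter sequences (build GRCm38.p6) were held for 4 of the 10 genes, Basp1, Marcksl1, Stmn3 and Tubb3. Those of Marcksl1, which was lower in the mutant, and of Basp1, a PKC substrate that did not pass the test, are shown as the 250 bases before the start of the transcript, 5′ to 3′ on the coding strand. Marcksl1 is at chr4:129513331-129513580 (plus strand) and Basp1 at chr15:25413765-25414014 (minus strand), and capitals mark GC boxes.
Marcksl1: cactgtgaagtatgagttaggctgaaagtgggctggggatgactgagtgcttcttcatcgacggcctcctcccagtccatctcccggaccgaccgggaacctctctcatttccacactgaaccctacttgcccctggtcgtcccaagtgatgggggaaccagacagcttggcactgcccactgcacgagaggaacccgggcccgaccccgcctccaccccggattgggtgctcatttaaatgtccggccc
Basp1: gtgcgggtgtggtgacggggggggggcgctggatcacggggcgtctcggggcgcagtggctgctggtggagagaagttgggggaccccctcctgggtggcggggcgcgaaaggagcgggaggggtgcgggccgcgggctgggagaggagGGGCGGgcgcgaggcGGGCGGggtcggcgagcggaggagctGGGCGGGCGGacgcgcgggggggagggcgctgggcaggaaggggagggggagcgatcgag
Letters were searched on both strands for the TATA box (TATAAA), an E-box (CAGCTG), the cAMP response element (TGACGTCA), the GC box (GGGCGG), the AP-1 site (TGANTCA), an ETS core (CCGGAAG) and the EGR site (GCGNGGGCG), where EGR and GC box matches may share bases. The Basp1 sequence held 4 GC boxes, some of them overlapping, and had a GC content of 78.8%. A GC box was found in 32.7% of 32851 promoter windows of the same length. The Marcksl1 sequence, with a GC content of 60.4%, held none of the 7 letter patterns. Tubb3 held 2 GC boxes and 1 EGR match, a pattern found in 4.70% of the windows, and Stmn3 held none. A match describes letters and not a bound site.

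The levels of the 10 genes are given as normalised counts, which the authors had adjusted for batches and scaled between libraries. All library totals were within a few percent of each other. The sequenced depth is unknown. Each SD given is the spread among libraries of a group. Each SE and each interval of a fold change comes instead from the limma fit over all genes, with genotype and series as terms. Braf itself ran from 2144 to 2469 in the mutant libraries and from 2635 to 3030 in the controls, and it fell (log2FC -0.30, SE 0.07; adjusted p = 0.0379). That call held in 2 of 9 fits that left out 1 library, and the highest adjusted p, 0.203, came without Braf+/+ replicate 4. The level does not show which allele the transcripts came from. Markers of hippocampal cells were present in all libraries. Prox1 of dentate granule cells was between 1881 and 2080. Wfs1 of CA1 pyramidal cells was between 3521 and 3752 in the mutant libraries and between 2304 and 2460 in the controls. Wfs1 thus differed between genotypes (log2FC 0.61, adjusted p = 0.000371). The summed signal of 7 choroid plexus markers ran from 1385 to 24300 in the mutant libraries and from 4467 to 391900 in the controls. It was highest in Braf+/+ replicates 2 and 4, and each count that leads the text was also computed without them. The summed signal of 6 thalamus markers was 2403 and 2341 in Nestin;BrafKE/+ replicates 1 and 3, against 1150 and 1314 in the other mutant libraries and 1100 to 1519 in the controls. Of the 6, 3 had a positive log2FC, with Zic1 at 0.96 (adjusted p = 0.312) and Rgs16 at 0.52 (adjusted p = 0.0985), 0 passed in limma and 1 had an unadjusted p under 0.05, and Tcf7l2 was between 93.9 and 119 in all libraries. The same counts were computed without replicates 1 and 3.

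To ask which axon growth genes differ between the genotypes, the 4 mutant libraries were set against the 5 controls. An effect of the allele and one of the Cre transgene cannot be told apart here. Gap43 and Dpysl3 rose, by 21.8% and 20.9%, and Marcksl1 fell by 25.8%. The other 7 genes did not pass the test. Effects are given as log2FC, the log2 fold change of Nestin;BrafKE/+ over Braf+/+ fitted by limma over all genes with genotype and series as terms. By that fit 3 of the 10 had an adjusted p under 0.05, against 2.88% of all 16196 genes tested and 4.75% of the 4463 genes whose mean was 1000 or more, the range in which all 10 genes lie. Of the 3, 2 were higher (1.52% of all genes) and 1 was lower (1.36%). The median log2FC of the 10 genes was 0.05, against 0.00 for all genes tested, and the median absolute log2FC was 0.10, against 0.12. Separate ranges in mutants and controls were seen for 4 of the 10 genes, against 15.7% of all genes tested and 21.4% of the more abundant ones. Of the 4, 3 were higher (7.62% of all genes) and 1 was lower (8.13%).

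**Figure D1:**
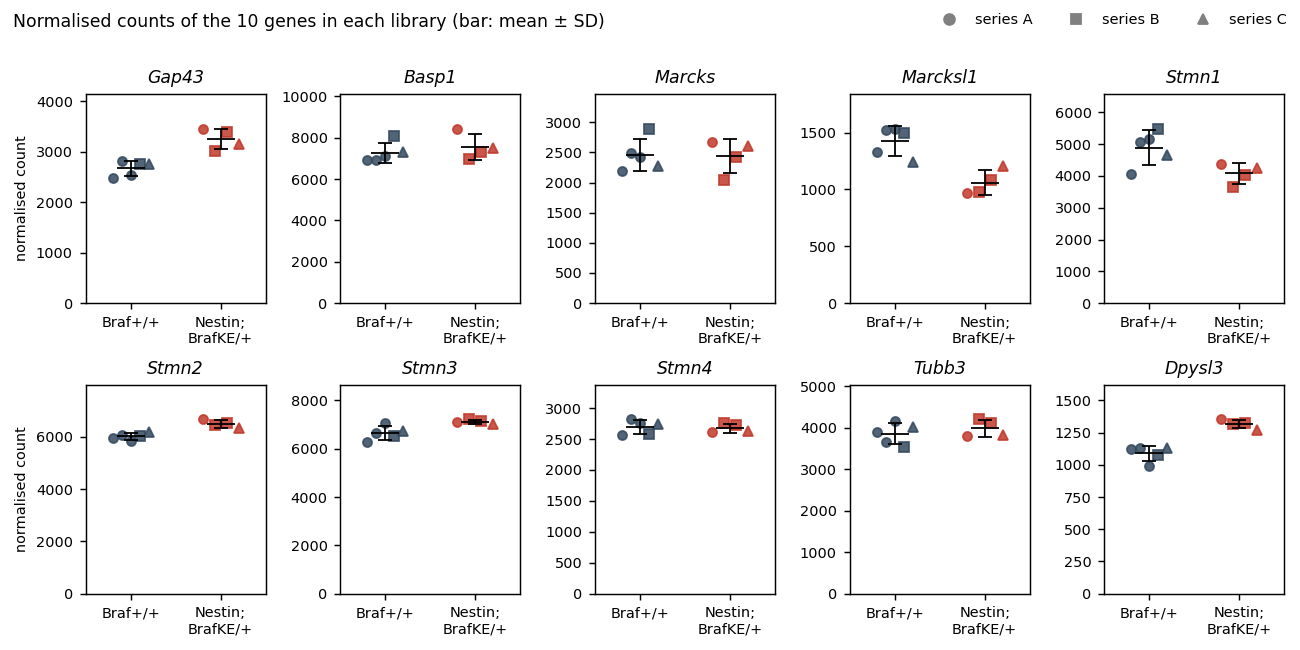
Normalised count (vertical axes, from 0) of each gene in every library, Braf+/+ on the left and Nestin;BrafKE/+ on the right of each panel. Symbols give the series, bars the mean ± SD (n = 5 and n = 4). The groups do not overlap for Gap43, Stmn2 and Dpysl3, which are higher in Nestin;BrafKE/+, and for Marcksl1, which is lower.

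Each of the 3 calls was lost without some single libraries. In the 9 fits that each left out 1 library, 0 or 1 of the 10 genes passed. Gap43 alone passed without Nestin;BrafKE/+ replicate 2, and Marcksl1 alone passed without Nestin;BrafKE/+ replicate 4 or Braf+/+ replicate 5. None passed without Nestin;BrafKE/+ replicate 1 or 3 or without Braf+/+ replicate 1, 2, 3 or 4, where limma gave from 4 to 6 of the 10 an unadjusted p under 0.05. With all libraries that was 5 of the 10, against 18.5% of all genes tested. Without Braf+/+ replicates 2 and 4 together, 0 of the 10 passed in limma and 5 had an unadjusted p under 0.05, with adjusted p of 0.131 for Gap43, 0.297 for Marcksl1 and 0.210 for Dpysl3. Without Nestin;BrafKE/+ replicates 1 and 3 together, 0 of the 10 passed in limma and 3 had an unadjusted p under 0.05. In these fits the number of genes past the threshold over the whole table was lower as well, between 42 and 369 when 1 was left out, 58 without that pair of controls and 1 without that pair of mutants, against 466 with all libraries. With the 4 prefixes of the library names as the term in place of the 3 series, 0 of the 10 passed in limma (4 at an unadjusted p under 0.05), and with array quality weights 0 passed (5 at an unadjusted p under 0.05).

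Among the PKC substrates, Gap43 (ENSMUSG00000047261, chromosome 16, 42068805 to 42161086 in GRCm39, minus strand) had normalised counts of 3453, 3015, 3391 and 3150 in Nestin;BrafKE/+ replicates 1 to 4. In Braf+/+ replicates 1 to 5 the counts were 2479, 2816, 2549, 2752 and 2750. Every mutant library lay above every control, although the gap between the lowest mutant and the highest control was smaller than the range within either group. Gap43 rose from a mean of 2669 ± 146 (SD, n = 5) to one of 3252 ± 205 (SD, n = 4), with a log2FC of 0.28 (SE 0.07; adjusted p = 0.0459) or 21.8% with a 95% interval from 10.2% to 34.5%. Series A gave a difference of 0.40, B of 0.22 and C of 0.20. Permuting the genotypes exactly gave a two-sided p of 0.00794 when all libraries were exchanged and of 0.0417 when exchange was kept within series, the smallest values possible. The study named Gap43 among its raised genes from these same libraries, so this result is not independent of that choice. It placed Gap43 in a group of raised genes that it linked to reactive astrocytes. Values from bulk tissue do not show which cells the transcripts came from. Without Nestin;BrafKE/+ replicate 1 the log2FC was 0.21 and the adjusted p 0.249. Nestin;BrafKE/+ replicates 1 and 3, the highest for Gap43, were also the highest for the thalamus markers. Without both, the log2FC was 0.16 (SE 0.08; adjusted p = 0.483), and the part of these markers in the result was not tested. A microRNA gene, Mir6540, lies within Gap43 on the same strand.

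Marcksl1 (ENSMUSG00000047945, chromosome 4, 129406288 to 129409778, plus strand), which encodes the smaller relative of Marcks, changed in the opposite direction. Its normalised counts were 971, 976, 1082 and 1207 in Nestin;BrafKE/+ replicates 1 to 4 and 1331, 1525, 1533, 1498 and 1243 in Braf+/+ replicates 1 to 5. All mutant libraries were below all controls, but the highest mutant and the lowest control, both of series C, were nearly equal. It fell (log2FC -0.43, SE 0.10; adjusted p = 0.0421), a change of -25.8% with a 95% interval from -35.9% to -14.1%. Series A and B gave -0.59 and -0.54, and series C -0.04. The exact permutation p was 0.0159 over all splits and 0.0417 within series. Without Nestin;BrafKE/+ replicate 1 the log2FC was -0.33 (adjusted p = 0.229), and without Braf+/+ replicate 4 it was -0.37 (adjusted p = 0.221).

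Basp1 and Marcks did not pass, and their libraries overlapped widely. Basp1, the most abundant of the 10 genes (chromosome 15, 25363350 to 25414981, minus strand), had counts of 8429, 6991, 7332 and 7496 in the mutant replicates and 6921, 6936, 7116, 8065 and 7311 in the controls. Its log2FC was 0.06 (SE 0.07; adjusted p = 0.724), with a 95% interval from -6.80% to 15.8%. Nestin;BrafKE/+ replicate 1 and Braf+/+ replicate 4 were high for Basp1, and the sign differed between series (0.27 in A, -0.17 in B, 0.04 in C). Marcks (chromosome 10, 37009239 to 37014942, minus strand) had counts of 2668, 2050, 2432 and 2605 in the mutant replicates and 2192, 2492, 2430, 2890 and 2279 in the controls. Braf+/+ replicate 4 was again the highest, and the coefficient of variation in the mutants, 11.4%, was the widest of the 10 genes. The log2FC of Marcks was -0.01 (SE 0.10; adjusted p = 0.966), with a 95% interval from -15.3% to 16.2%. The interval of Marcksl1, from -35.9% to -14.1%, overlapped it at its edge, and the difference between Marcks and Marcksl1 was not tested.

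**Figure D2:**
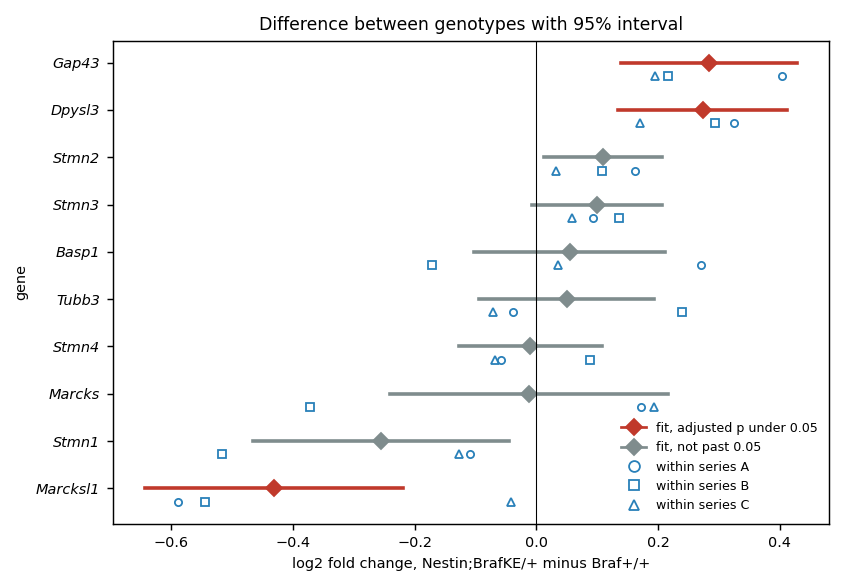
Log2 fold change of each gene (diamonds) with its 95% interval from the fit over all genes, and the difference within each series (open blue symbols below). Gap43 and Dpysl3 lie to the right of 0 and Marcksl1 to the left in the fit and in all 3 series; the series C value of Marcksl1 is -0.04.

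None of the 4 stathmins passed in limma, and 2 of them, Stmn1 and Stmn2, had an unadjusted p under 0.05. Stmn2, the neuronal stathmin of growth cones (chromosome 3, 8574151 to 8626667, plus strand), had counts of 6662, 6449, 6522 and 6320 in Nestin;BrafKE/+ replicates 1 to 4 and 5943, 6078, 5852, 6021 and 6177 in Braf+/+ replicates 1 to 5. The lowest mutant exceeded the highest control, and the spread was narrow, with a coefficient of variation of 2.20% in the mutants and 2.07% in the controls. The log2FC was 0.11 (SE 0.04; adjusted p = 0.214), or 7.86% with a 95% interval from 0.863% to 15.3%. The exact permutation p was 0.00794 over all splits and 0.0417 within series, and each series gave a positive difference (0.16, 0.11 and 0.03).

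Stmn3, which is enriched in neurons like Stmn2 (chromosome 2, 180948247 to 180956293, minus strand), gave a similar value. Its counts were 7093, 7210, 7150 and 7021 in the mutants and 6280, 6635, 7052, 6535 and 6741 in the controls, so that Braf+/+ replicate 3 overlapped the mutant range. The log2FC was 0.10 (SE 0.05; adjusted p = 0.308), and it was positive in all 3 series, with 0.09, 0.14 and 0.06. Stmn4 (chromosome 14, 66581745 to 66599131, plus strand) had counts that ran from 2607 to 2755 in the mutants and from 2569 to 2816 in the controls. The mutant range of Stmn4 lay within that of the controls, and its log2FC was -0.01 (SE 0.05; adjusted p = 0.943), with a 95% interval from -8.46% to 7.72%.

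Stmn1, the widely expressed stathmin that is abundant in progenitors and immature neurons (chromosome 4, 134195021 to 134201882, plus strand), had a negative value. Its counts were 4386, 3650, 4019 and 4254 in the mutants and 4053, 5056, 5169, 5480 and 4645 in the controls. The 4 mutant libraries were below 4 of the 5 controls, and Braf+/+ replicate 1 lay within the mutant range. The log2FC was -0.26 (SE 0.10; adjusted p = 0.183), with a 95% interval from -27.6% to -3.08%. It was negative in all 3 series (-0.11, -0.52 and -0.13), and the exact permutation p was 0.0476 over all splits and 0.0833 within series. Without Braf+/+ replicate 4, the highest control, it was -0.12 (adjusted p = 0.661). The span of a predicted gene, Gm55612, overlaps that of Stmn1 on the same strand, and the span of another, Gm48956, overlaps that of Basp1. Reads in any shared exons could belong to either gene, but overlap of exons was not examined. These spans are from Gencode vM39, and the authors used vM28.

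Dpysl3 (ENSMUSG00000024501, chromosome 18, 43454049 to 43571532, minus strand) had counts of 1352, 1318, 1328 and 1271 in Nestin;BrafKE/+ replicates 1 to 4 and 1120, 1130, 994, 1080 and 1130 in Braf+/+ replicates 1 to 5. The groups were well separated, with a distance between them larger than the whole mutant range. Dpysl3 rose from a mean of 1091 ± 58.1 (SD, n = 5) to one of 1317 ± 34.0 (SD, n = 4), with a log2FC of 0.27 (SE 0.06; adjusted p = 0.0459), or 20.9% with a 95% interval from 9.79% to 33.1%. Each series gave a positive difference (0.33, 0.29 and 0.17), and the exact permutation p values were 0.00794 and 0.0417, the smallest possible. Dpysl3 did not pass in any of the 9 fits that left out 1 library, with adjusted p from 0.0524 without Braf+/+ replicate 3 to 0.212 without Nestin;BrafKE/+ replicate 1, while its log2FC stayed between 0.24 and 0.31. Tubb3 (chromosome 8, 124138163 to 124150092, plus strand) had counts that ran from 3806 to 4203 in the mutants and from 3528 to 4161 in the controls. Its log2FC was 0.05 (SE 0.07; adjusted p = 0.732), and series B alone gave a positive difference (0.24, against -0.04 in A and -0.07 in C).

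Markers of cell types moved with genotype in the same libraries. The summed signal of 8 pan-neuronal markers, one of which is Stmn2, was lower in every mutant library (134600 to 138000) than in any control (138700 to 144400), and 0 of the 8 passed in limma (4 at an unadjusted p under 0.05). Snap25 and Syt1, which make up most of that sum, had log2FCs of -0.12 (adjusted p = 0.223) and -0.18 (adjusted p = 0.123), and Rbfox3 was at -0.16 (adjusted p = 0.209). The other 5 of the 8 had positive values, and the median log2FC of the list was 0.04. A list level that weights genes equally was also taken, the mean over the list of each log2 value less the gene's own mean. For the pan-neuronal list this level overlapped between the groups, from -0.03 to 0.02 in the mutants and from -0.02 to 0.03 in the controls. The sum of 8 oligodendrocyte markers was 121700 to 131200 in the mutants and 88550 to 107100 in the controls, with 4 of 8 genes past the threshold. The sum of 6 CA1 markers was 13530 to 14050 and 10980 to 11400, with 2 of 6 past the threshold, Wfs1 and Fibcd1, both higher. That of 8 astrocyte markers was 110900 to 124800 and 104200 to 117900, with 3 of 8 past it, all higher, among them Gfap. The largest part of that sum was Slc1a2, with means of 63194 in the mutants and 65668 in the controls (log2FC -0.06, adjusted p = 0.719 in limma). The equal-weight level of the astrocyte list was higher in every mutant library (0.08 to 0.21) than in any control (-0.16 to -0.05). Of these 8 astrocyte markers, 6 had a positive log2FC. The sum of 8 immature neuron markers was 5862 to 6858 and 5154 to 5953, with 0 of 8 past the threshold (2 at an unadjusted p under 0.05 in limma). Most of the immature neuron sum was Tubb2b, with means of 4357 in the mutants and 3702 in the controls, which is also among the tubulins below. Of the 8 immature neuron markers, 7 had a positive log2FC, and Sox11 was at -0.24 (adjusted p = 0.236), with no overlap between the groups. The sum of 8 interneuron markers was 16960 to 18860 in the mutants and 14960 to 16750 in the controls, with 1 of 8 past the threshold, Npy (log2FC 1.01, adjusted p = 0.00105). That of 8 dentate granule markers was 9436 to 10240 and 9279 to 9824, and 3 of 8 passed, Dsp (log2FC -0.78, adjusted p = 0.0106) and Lct (log2FC -0.39, adjusted p = 0.0161) lower and Calb1 (log2FC 0.43, adjusted p = 0.0178) higher. In the CA3, microglia and endothelium lists the sums of the groups overlapped and 0 genes passed in limma, with 4 of 8, 2 of 8 and 0 of 6 at an unadjusted p under 0.05. The equal-weight level of the CA3 list, however, was lower in every mutant library (-0.26 to -0.09) than in any control (0.03 to 0.22). Of its 8 genes 3 had a positive log2FC, and Iyd was lowest at -1.23 (adjusted p = 0.05045 in limma). No marker was listed at 0. In bulk tissue, fewer cells of a type and less RNA per cell cannot be told apart, and the part of these markers in the values of Gap43, Dpysl3 and Marcksl1 was not tested.

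Since Gap43 and the other genes were measured in the same libraries, their ratios show whether Gap43 changed by another amount. The log2 ratio of Gap43 to each of the other 9 genes was compared between genotypes, 9 ratios in all, with no adjustment over them. Gap43 is a term of every ratio, and its own groups did not overlap. The 9 comparisons are therefore not independent of the Gap43 result or of each other, and they add no separate evidence that Gap43 rose. The same ratios to genes outside the list were not computed. The ratio to Basp1 was higher in the mutants by 0.23 (-1.22 ± 0.08 against -1.44 ± 0.09, SD), and that to Marcks by 0.30 (0.42 ± 0.12 against 0.12 ± 0.13), each with an exact permutation p of 0.0159 over all splits and no overlap between the groups. The largest difference was 0.71, for the ratio to Marcksl1, which was 1.38 to 1.83 in the mutants and 0.73 to 1.15 in the controls. It was followed by Stmn1 with 0.54. The ratios to Marcksl1, Stmn1, Stmn2 (0.17) and Stmn4 (0.29) had an exact permutation p of 0.00794.

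The ratio to Dpysl3 did not differ beyond the spread between libraries, with 1.30 ± 0.08 (SD, n = 4) in the mutants and 1.29 ± 0.09 (SD, n = 5) in the controls, a difference of 0.01 (exact permutation p = 0.810). The ratio to Tubb3 was higher by 0.23 (exact permutation p = 0.0714), and that to Stmn3 by 0.18 (exact permutation p = 0.0317 over all splits and 0.125 within series), and in both the groups overlapped. The p for Stmn3 was above 0.05 in 8 of 9 computations without 1 library, all but that without Nestin;BrafKE/+ replicate 2, and that for Marcks in 1 of 9, without Nestin;BrafKE/+ replicate 2 (0.0536). That for Tubb3 was 0.0357 without the same library. The ratio to Marcks was higher by 0.23 in series A and by 0.59 in B, and its difference in series C was 0.00.

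**Figure D3:**
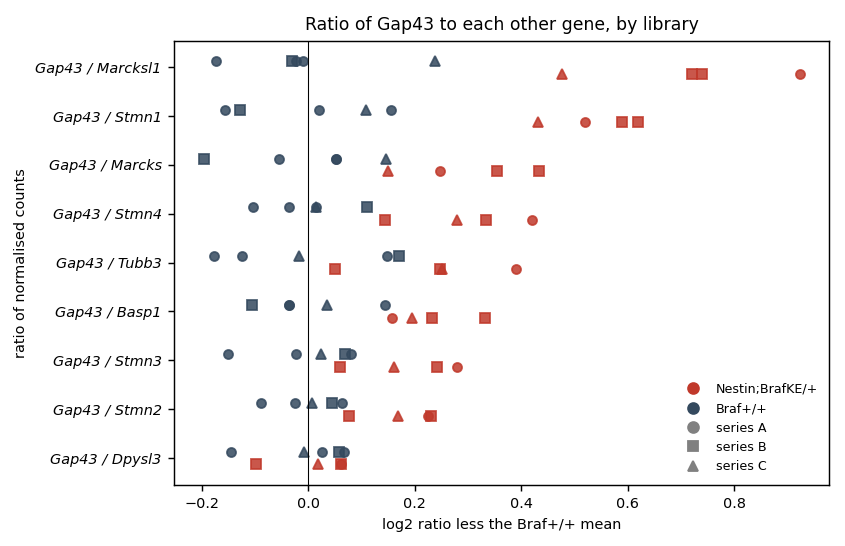
Log2 ratio of Gap43 to each other gene in every library, less the Braf+/+ mean of that ratio (horizontal axis); colours give the genotype and symbols the series. The Nestin;BrafKE/+ libraries lie to the right of all Braf+/+ libraries for 6 of the 9 ratios and among them for the ratio to Dpysl3.

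Levels between genes were compared per kilobase of annotated exons. In Braf+/+ the order was Basp1 (3356 ± 218 normalised counts per kilobase, SD, n = 5), Stmn3 (2383 ± 101), Gap43 (1407 ± 77.2), Tubb3 (1201 ± 79.8), Stmn2 (1040 ± 21.6), Stmn1 (972 ± 110), Marcks (584 ± 64.2), Marcksl1 (529 ± 48.7), Stmn4 (468 ± 20) and Dpysl3 (161 ± 8.56). The control libraries of Stmn2 and Stmn1 overlapped, as did those of Marcks and Marcksl1 and those of Marcksl1 and Stmn4, and the other neighbours did not. Per length, Basp1 was above 99.4% and Dpysl3 above 76.4% of 16134 genes. In Nestin;BrafKE/+ Marcksl1 (393 ± 41.4, SD, n = 4) was below Stmn4 (464 ± 12.6) and the other places were as in the controls. That change of order was not seen with the longest annotated transcript as the length, by which Stmn4 (712 ± 30.5) was above Marcksl1 (530 ± 48.8) in Braf+/+ too. By the same length Gap43 in Braf+/+ (1700 ± 93.3) came after Stmn2 (1762 ± 36.5) and Stmn1 (1718 ± 194), whose control libraries overlapped with its own. In Nestin;BrafKE/+ Gap43 (2071 ± 131) came before Stmn2 (1901 ± 41.8) and Stmn1 (1436 ± 114), and the mutant libraries of Gap43 and Stmn2 overlapped.

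**Figure D4:**
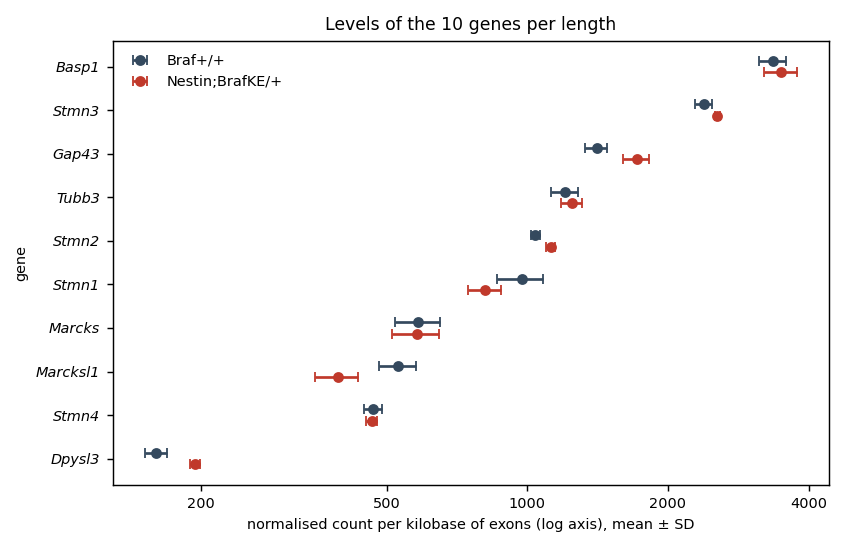
Normalised count per kilobase of exons on a log axis, as the mean ± SD of 5 Braf+/+ and 4 Nestin;BrafKE/+ libraries, in the order of the control levels. The genes span from 161 for Dpysl3 to 3356 for Basp1 in the controls, and Marcksl1 and Stmn4 change places in the mutants with this length but not with that of the longest transcript.

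The genes most like Gap43 over the 9 libraries were found by the root mean square difference between log2 profiles, each centred on its own mean, among 11881 other genes with a mean of at least 100. They were Srgap1 (0.037), Aldh6a1 (0.038), Pdgfra (0.041), Hsd17b12 (0.043) and Sgsm1 (0.043). Srgap1 encodes a GTPase-activating protein of Slit-Robo signalling, Aldh6a1 a mitochondrial dehydrogenase, Pdgfra the receptor that marks oligodendrocyte precursors, and Hsd17b12 an enzyme of fatty acid elongation. The log2FCs of these 5 genes were between 0.24 and 0.30, with adjusted p from 0.0541 to 0.0909, so none passed over all genes, although each had an unadjusted p under 0.05 in limma. Of the other 9 axon growth genes, Dpysl3 was nearest to Gap43 (0.072, place 69 of 11881), then Stmn2 (0.104, place 543), and Marcksl1 was farthest (0.384, place 11459). Among the 10 genes, the closest profiles were those of Stmn2 and Stmn3 (0.052) and the most distant those of Marcksl1 and Dpysl3 (0.387). These are descriptions over libraries of both genotypes.

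Other genes of axon growth were taken from 8 lists of 89 genes, of which 88 were tested. Of these 6 passed, or 6.82% against 2.88% of all genes tested, 4 higher and 2 lower, and 45 of 88 had a positive log2FC. The share was 4.75% among genes with a mean of 1000 or more, a level that not all listed genes reach. Among kinases, phosphatases and other partners of the PKC substrates, 1 of 12 passed and 7 had an unadjusted p under 0.05, a level that 18.5% of all genes tested reached. Prkce, the epsilon isoform of PKC, fell (log2FC -0.19), from 12329 ± 165 (SD, n = 5) to 10820 ± 170 (SD, n = 4) (adjusted p = 0.0398), and its groups did not overlap. Prkcd, the delta isoform and also 1 of the thalamus markers, had the largest absolute value of that list, a log2FC of 0.26 (adjusted p = 0.611), with differences of 0.75, 0.08 and -0.25 in series A to C.

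Most cytoskeletal genes did not pass. Of 10 other tubulins 0 passed in limma (2 at an unadjusted p under 0.05), although all 10 had positive log2FCs, from 0.02 to 0.24 for Tubb2b (adjusted p = 0.135), with a median of 0.10. Of the 4 other collapsin response mediators 0 passed in limma and 0 had an unadjusted p under 0.05, with Dpysl4 at -0.15 (adjusted p = 0.326). Map4, a widely expressed microtubule-associated protein, rose (log2FC 0.19, adjusted p = 0.0439), the 1 of 11 microtubule-associated proteins that passed. Fscn1, which bundles actin in growth cone filopodia, rose from 2645 ± 193 (SD, n = 5) to 3264 ± 131 (SD, n = 4) (log2FC 0.30, adjusted p = 0.0390), the 1 of 12 actin regulators that passed.

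Of the transcription factors and mRNA-binding proteins of axon growth, 1 of 13 tested passed. Creb1, the cAMP response element binding protein, fell (log2FC -0.39), from 1229 ± 69.6 (SD, n = 5) to 938 ± 52.5 (SD, n = 4) (adjusted p = 0.0176), and its difference was negative in each series (-0.29, -0.34 and -0.61). Of 17 adhesion and guidance receptors, Ncam1, a neural cell adhesion molecule, rose (log2FC 0.27, adjusted p = 0.0364), while Unc5d, with the largest absolute value of that list, was at -0.32 (adjusted p = 0.329). Of 9 axon growth inhibitors and their receptors, Mag, a myelin protein that is also among the oligodendrocyte markers, rose (log2FC 0.41, adjusted p = 0.0457). Sema3a, a semaphorin that repels axons, had a log2FC of 0.67 (adjusted p = 0.126), which was 1.32 in series A and 0.07 in B.

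**Figure D5:**
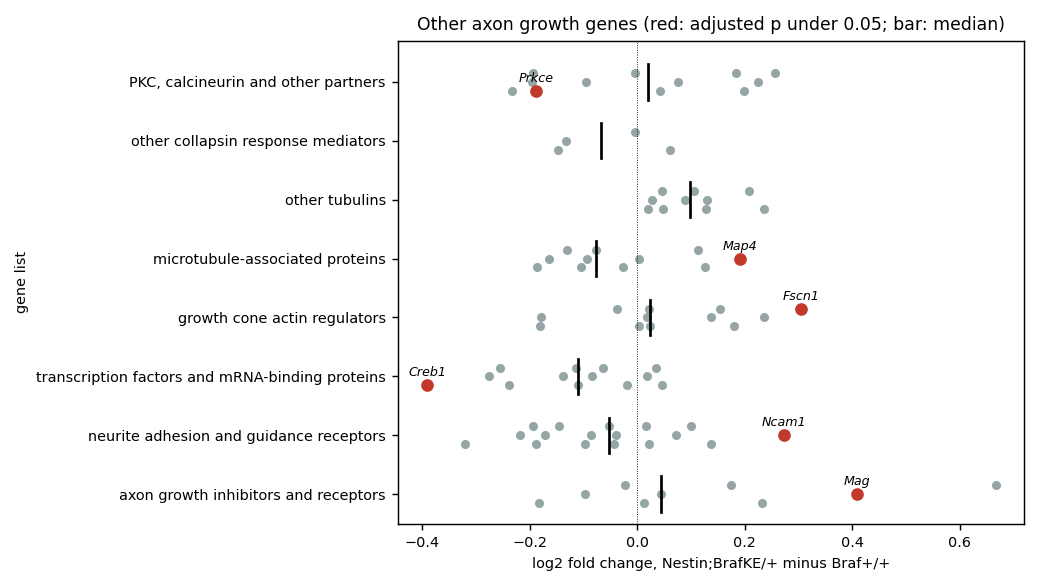
Log2 fold change of each tested gene in the 8 lists, 1 point per gene, with genes past an adjusted p of 0.05 in red and named, and the list median as a bar. The 10 tubulins lie to the right of 0 with none past the threshold, and 6 genes are past it in the other lists, 4 higher and 2 lower.

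These 6 calls also depended on single libraries. Of the 9 fits that left out 1 library, Creb1 passed in 5, Fscn1 and Ncam1 in 3, Mag in 1, and Prkce and Map4 in 0. Without Braf+/+ replicates 2 and 4 together, 0 of the 88 passed in limma and 24 had an unadjusted p under 0.05, and without Nestin;BrafKE/+ replicates 1 and 3 together 0 passed and 22 had an unadjusted p under 0.05. The highest adjusted p was 0.0746 for Creb1, 0.217 for Fscn1, 0.187 for Ncam1 and 0.253 for Mag, each without Braf+/+ replicate 4. It was 0.195 for Prkce and 0.196 for Map4 without Nestin;BrafKE/+ replicate 1. With quantile normalisation Prkce (adjusted p = 0.0612) and Map4 (adjusted p = 0.0635) did not pass.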

How the data were processed

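Hippocampal RNA of 9 mice was sequenced from stranded mRNA libraries. The authors trimmed the reads with Trim Galore, aligned them with STAR to GRCm39 (Gencode vM28), quantified them with Salmon (nf-core rnaseq 3.2), removed batch effects, without naming the batches, and normalised with DESeq2. The deposited values are thus a signal, in batch-adjusted normalised counts. Within a library every value was a whole multiple of 1 step to within 0.02 of a step, but mt-Co1 had 1 whole number in all libraries, so these are not reads and no count model was used.

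The test was that of limma 3.58.1 (R 4.3.3, trended eBayes) on log2(value + 1) for genes with a mean of 10 or more, with genotype and series of library names as terms and Benjamini-Hochberg adjustment over all genes (threshold 0.05). Fold changes are on that scale and understate changes of low genes. Exact permutation tests were two-sided. The steps were tested on simulated data. Figures used matplotlib 3.10.9.

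The genes, lists and tests were chosen with earlier results of these data known. The named genes are the 10, Braf, list genes past the threshold, the largest value of each list, the 5 nearest to Gap43 and defining markers. Snap25, Rgs16, Lct, Calb1 and Slc1a2 were added after their values were seen. Gene positions and exon lengths came from Gencode vM39 on GRCm39, in which 99.5% of gene IDs were found. 1 listed gene, Igf2bp1, was not tested, and another was left out of the lists and is not reported here. Alternatives were other pseudocounts, filters, scalings, series terms, weights and thresholds, a replicate block, and leaving out libraries. 1 library came from each animal.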

Additional observations from a re-analysis of the deposited data

Results flagged for a closer look

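Each group of values of the 10 genes, 20 in all, was examined for a single library at a distance from its group by Dixon's test, and 0 were found, where chance gives about 1 in 20.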

How the results depend on the processing

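Of the 10 genes, 3 passed under 9 of the 12 other settings that kept all libraries, threshold and scaling changes included, 4 passed without the series term (Stmn2 with an adjusted p of 0.0323), and 0 passed in limma with 4 name prefixes as the term (4 at an unadjusted p under 0.05) or with array quality weights (5). The log2 fold change of Gap43 was 0.28 with 4 name prefixes (adjusted p = 0.118) and 0.30 with array quality weights (0.0676). Marcks was at 0.0425 with array quality weights. The count over all genes was 2260 without the series term, 1405 with the replicate block, 927 at a threshold of 0.10, 258 with array quality weights and 165 with 4 name prefixes, against 466. The count of 6 listed axon growth genes became 27 without the series term, 21 with the replicate block and 1 with either 4 name prefixes or array quality weights. Without 1 library, the counts ran from 42 to 369 for all genes, 0 to 1 for the 10 genes and 0 to 5 for the listed genes. Gap43 then ran from 0.21 to 0.32, Basp1 from -0.0827 to 0.18, Marcks from -0.13 to 0.18, Stmn4 from -0.0624 to 0.021, Tubb3 from -0.0512 to 0.11, and the ratio of Gap43 to Dpysl3 from -0.0253 to 0.0469. Leaving out Braf+/+ replicates 2 and 4 together, chosen after seeing the data, gave counts of 58, 0 and 0, with 5 of the 10 and 24 of the listed genes at an unadjusted p under 0.05 in limma, and values of 0.35 for Gap43 (adjusted p = 0.131), 0.20 for Marcks and -0.0778 for Tubb3. Leaving out Nestin;BrafKE/+ replicates 1 and 3, also chosen after seeing the data, gave counts of 1, 0 and 0, with 3 of the 10 and 22 of the listed genes at an unadjusted p under 0.05 in limma, and values of 0.1636 for Gap43 (adjusted p = 0.483), -0.0851 for Basp1 and 0.0145 for Stmn4. Fewer libraries also leave fewer residual degrees of freedom, and the cause of the other shifts was not tested.

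Same-numbered replicates share only a number: their deviations from the group means correlated across genes with r of -0.39, -0.08, 0.07 and 0.42 for replicates 1 to 4, and 1 of the 4 mutant libraries was closest to the control of its own number. With the replicate block in place of the series term, 3 of the 10 genes passed, the same genes as in the report. The table gives no sequenced depth, so no counting error could be set beside these values.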
